A study of Mus musculus with 3 samples.

Results

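The adipokine genes described here were 9 genes for proteins that fat cells release: Adipoq, Lep, Rarres2, Apln, Nrg4, Nampt, Angptl4, Angptl2 and Vegfa. The cells were 3T3-L1, a long-established line of mouse preadipocytes that store fat once adipogenesis is induced by hormones. A single array was run for each of 3 time points, labelled 2, 8 and 20 days, and every array held Cy3-labelled cRNA made from total RNA. The time labels give the number of days and not the event from which they are counted. All groups were the same line after the same induction, with no mutant, no drug arm and no uninduced cells, and the labels describe day 2 as just after differentiation. The question was how gene expression changes as the adipocytes grow in size. The genes were chosen by name, and every array probe whose RefSeq identifier belongs to one of them was kept, which gave 11 probes for the 9 genes out of 20142 genes with a probe.

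Adipokines carry signals from fat cells to other organs and to neighbouring cells. Some are hormones of energy balance, such as adiponectin, which raises insulin sensitivity, and leptin, which reports the size of the fat stores to the brain. Others act on blood vessels, immune cells or the enzymes that unload fat from lipoproteins. The line is a culture of 1 cell type, so vessels, immune cells and the stroma of a fat depot are missing, and 3T3-L1 adipocytes are known to make little leptin.

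Each value below is the log2 processed signal of a probe minus the 75th percentile of that array's probes, so that 0 is the level of the 75th percentile. A gene was read from its brightest probe. A signal counted as detected when the scanner software marked it as well above background, and 8 of the 9 genes were detected on all 3 arrays. Of all 20142 genes with a probe, 11810 were. With 1 array per day there was no replicate check, no test was possible, and a difference between days includes whatever set 1 culture apart from another. The only error at hand was technical: the SD between spots of 1 probe at the same signal on the same array, taken from probes printed 10 times, and combined over both arrays for a difference. That SD covers spots and not cultures, and the number of arrays limits the precision. Levels of different probes are not on 1 scale and, apart from the sums of marker levels below, were compared only within a gene. In those sums, which include probes not well above background, the brightest probes weigh most.

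Between 55.3% and 56.9% of 43020 spots were well above background, none was saturated, and all 3 arrays shared 1 slide and 1 scan. The 75th percentile of intensity was 662, 636 and 927 on days 2, 8 and 20, and the spike-in controls lay 2.69, 2.67 and 2.00 above it on the log2 scale, so day 20 stood apart from the other arrays. All 12 adipocyte markers were detected on every day. Their levels, in multiples of the 75th percentile, summed to 673, 889 and 679 on days 2, 8 and 20. On day 8, 6 of the 12 were at least 2-fold higher than on day 2 and 0 lower (median 0.91), beside 13.8% and 12.9% of all genes. Fabp4 differed by -0.05, Cidec by 0.02 and Cebpa by -0.40, whereas Slc2a4 was higher by 3.42. The 9 brown adipocyte markers summed to 0.97, 160 and 122 in multiples of the 75th percentile, with Cox7a1 and Cox8b the brightest on day 8. Cox7a1 was 197-fold, Cidea 51.5-fold and Zic1 2.10-fold higher on day 8 than on day 2, and Cox8b at least 1690-fold. Elovl3 was detected on day 2 only and Eva1a on day 20 only. Ucp1, the thermogenic uncoupling protein, Prdm16 and Lhx8 were detected on no day. Among markers of other cells, the macrophage genes Adgre1, Cd163, Mrc1, Ptprc and Lyz2 and the endothelial genes Cdh5, Tek, Tie1 and Cldn5 were not well above background on any day. Others of these lists were detected on all 3: Csf1r, Itgam, Cd14, Marco and Mertk, with Cd14 7.79-fold and Marco 17.2-fold higher on day 8 than on day 2, and Pecam1 and Egfl7, the latter 3.09-fold higher. The summed level of 11 macrophage markers was 9.29, 12.3 and 6.87 on days 2, 8 and 20, and that of 10 endothelial markers 1.08, 3.09 and 2.00. The 12 preadipocyte and fibroblast markers summed to 216, 151 and 275. From day 8 to day 20, 4 of 11 measured were at least 2-fold higher and 1 lower, beside 3.58% and 1.74% of all genes. The part of these markers in the adipokine values was not tested.

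Most of the adipokine genes were much higher by day 8 than on day 2, and 3 were within 2-fold of their day 2 level. Between day 2 and day 8, 5 of the 8 genes measured on both arrays were at least 2-fold higher (Rarres2, Adipoq, Nrg4, Apln and Angptl2), where 13.8% of 12045 measured genes were. None of the 8 was at least 2-fold lower, against 12.9% of all genes. The other 3, Vegfa, Nampt and Angptl4, differed by less than 2-fold. The median difference was 3.02 over the members and -0.06 over all genes. In these bulk samples, more cells of a type and more RNA per cell cannot be told apart.

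**Figure D1:**
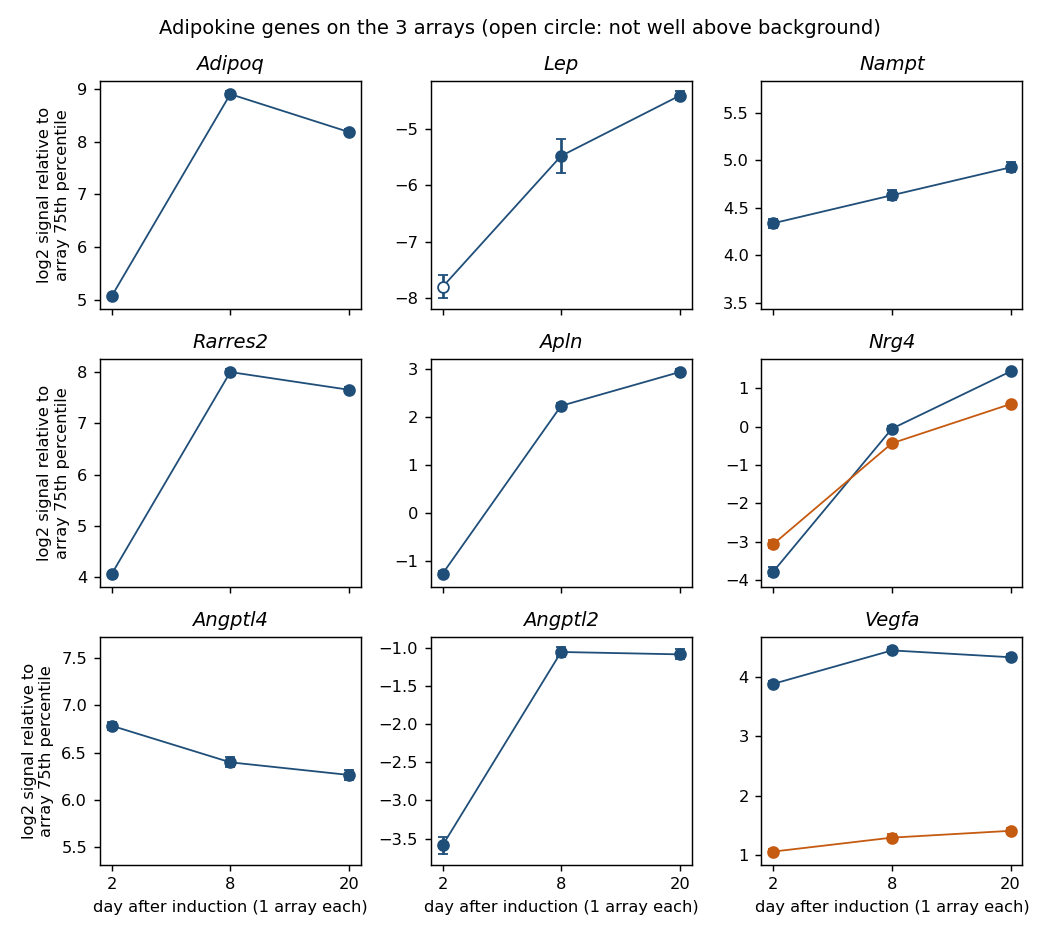
Log2 signal of the 9 adipokine genes relative to the 75th percentile of the array (vertical axis, own range per panel) against the labelled day. The axis title counts the days from induction, which the time labels do not state. Blue is the probe used for the gene, orange a second probe, and bars are 1 technical SD (for Lep the SD of its spots). Adipoq, Rarres2, Apln, Nrg4 and Angptl2 are higher on day 8 than on day 2, Nampt, Angptl4 and Vegfa are within 2-fold, and Lep is an open circle on day 2 because no spot was well above background.

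Adipoq encodes adiponectin, the most abundant hormone of fat cells. Its processed intensity, before any scaling, was 22193, 303520 and 268770 on days 2, 8 and 20. On the scaled log2 axis the values were 5.07, 8.90 and 8.18. Day 2 was thus the low array and day 8 the highest. Day 8 was 14.2-fold above day 2, a log2 difference of 3.83 (technical SD 0.067) that was larger than that of 98.7% of the measured genes. Day 20 was below day 8 by a log2 difference of -0.72 (technical SD 0.075), or 1.65-fold, and 4.88% of the measured genes had a difference further down. It stayed 8.65-fold above day 2. The genes of the lists below that were brightest on day 8 were all lower on day 20 too. Aldoa differed by -0.51, Pgk1 by -0.55, Cfd by -0.55, Bnip3 by -0.47 and Fabp4 by -0.71. The rank among all genes does not take signal level into account, and its part in the Adipoq difference was not tested.

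Rarres2, the gene of the chemoattractant chemerin, followed a similar course. It read 4.05 on day 2, 8.01 on day 8 and 7.66 on day 20, with unscaled intensities of 10987, 163550 and 187430. The unscaled and the scaled values order days 8 and 20 in opposite ways, because the 75th percentile itself was 636 on day 8 and 927 on day 20. The day 8 difference was 3.95 (technical SD 0.070), or 15.5-fold, and that from day 8 to day 20 was -0.35 (technical SD 0.075). The latter was positive in 3 of 6 ways of scaling the arrays and negative in the other 3, from -0.35 to 0.32, so its direction is not settled.

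Apln, the precursor of the vasoactive peptide apelin, was at -1.27, 2.23 and 2.93 on the log2 scale on days 2, 8 and 20. It was the lowest on day 2 and the highest on day 20. The first step was 3.50 (technical SD 0.076; 11.3-fold) and the second 0.70 (technical SD 0.076; 1.63-fold), the latter above that of 93.5% of measured genes. From day 2 to day 20 the signal was 18.5-fold higher.

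Nrg4 encodes neuregulin 4, an EGF-like ligand that fat cells, brown ones above all, send to the liver. Both of its probes were higher at each later day. The brighter read -3.78, -0.05 and 1.44 on days 2, 8 and 20, with unscaled intensities of 48.3, 614 and 2519, and the other read -3.06, -0.43 and 0.59. Day 8 was above day 2 by 3.73 (technical SD 0.140; 13.2-fold) on the first probe and by 2.63 (technical SD 0.116; 6.19-fold) on the second. Day 20 was above day 8 by 1.49 (technical SD 0.078; 2.81-fold) and 1.02 (technical SD 0.081; 2.03-fold). On the first probe, the total from day 2 to day 20 was 37.2-fold, and 72 of 11888 measured genes had a larger one. The gene was dim on day 2, and with the normexp background correction, which adds an offset of 50 to every spot, the day 8 difference was 2.46 and that over the whole course 3.84.

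Angptl2, an angiopoietin-like protein tied to inflammation in fat tissue, moved between days 2 and 8 and hardly afterwards. Its values were -3.59, -1.06 and -1.09, with intensities of 305 and 436 before scaling on days 8 and 20. Day 8 exceeded day 2 by 2.53 (technical SD 0.131), or 5.78-fold, and by 1.59 with normexp. Days 8 and 20 differed by -0.03 (technical SD 0.087), less than the technical SD.

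Nampt makes the rate-limiting enzyme of NAD salvage, which is also found outside cells under the name visfatin. It read 4.34 on day 2, 4.63 on day 8 and 4.92 on day 20, the order of the days being the same in all 6 scalings. The differences were 0.30 (technical SD 0.068) and 0.29 (technical SD 0.074), and 0.59 over the whole course.

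Angptl4, an inhibitor of lipoprotein lipase, was the only one of the 8 measured genes below its day 2 level on day 8. The values were 6.78, 6.40 and 6.26 on days 2, 8 and 20. The day 8 difference of -0.39 (technical SD 0.067), a signal 1.31-fold lower, was negative in all 6 scalings and was near the middle of the distribution, with 33.4% of measured genes below it. That from day 8 to day 20, -0.13, was positive in 4 of the 6 scalings.

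Vegfa, the main growth factor of blood vessels, had 2 probes that match different RefSeq transcripts of the gene. The brighter read 3.88, 4.45 and 4.33 and the other 1.06, 1.29 and 1.41 on days 2, 8 and 20. Both were higher on day 8, by 0.56 (technical SD 0.070) and 0.23 (technical SD 0.073). At the later step they differed in sign, at -0.12 (technical SD 0.074) and 0.11 (technical SD 0.076).

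Lep, the gene of leptin, lay at the edge of detection, and its single probe was printed 10 times on each array. On day 2, the processed intensities ran from 2.56 to 3.97 and 0 of 10 spots were well above background. On day 8 they ran from 10.1 to 19.1, and 6 of 10 spots passed. On day 20, 2 spots were outliers and the 8 that were kept ran from 40.7 to 45.7, all above background. The local background of these spots was 18.0, 18.8 and 19.3 before it was subtracted. The spots of the 3 days did not overlap, with scaled means of -7.80 ± 0.20 (SD, n = 10 spots), -5.48 ± 0.30 (SD, n = 10 spots) and -4.42 ± 0.075 (SD, n = 8 spots). These spots are repeats of 1 probe on 1 array and not separate cultures.

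**Figure D2:**
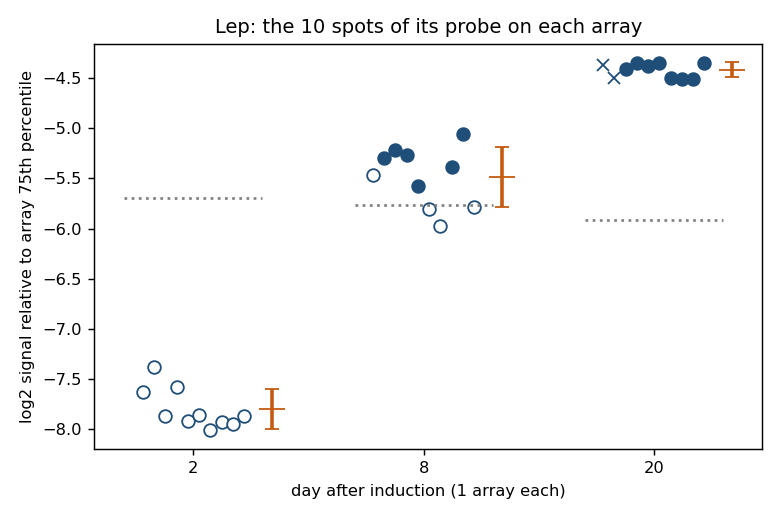
Log2 signal of each of the 10 Lep spots relative to the 75th percentile of its array, by day; filled circles are spots well above background, open circles are not, crosses are outlier spots left out of the mean, orange bars give mean and SD of the kept spots, and dotted lines mark the lowest signal well above background on that array. The day 8 spots straddle the detection line, with 6 of 10 passing, whereas all day 20 spots are above it.

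Since day 2 gave no Lep signal well above background, only a bound could be set, the mean of the later array against the lowest detected signal of the day 2 array (-5.70). By this bound the day 8 signal was at least 1.16-fold above day 2, and the day 20 signal at least 2.43-fold. Days 8 and 20 differed by 1.07 (technical SD of the spot means 0.113), or 2.09-fold, with 96.9% of measured genes below. With the normexp background correction the same difference was -0.04.

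Over the later interval, the one on which the study's question about cell size bears, most members were within 2-fold. From day 8 to day 20, 2 of 9 genes had passed 2-fold upward, Nrg4 and Lep, where 3.58% of 12321 measured genes were. None was at least 2-fold lower, against 1.74% of all genes. The median difference was -0.03 over the members and -0.05 over all genes. At a threshold of 1.5-fold, Apln joined the higher genes and Adipoq was the only lower one, with 8.43% of all genes higher and 8.94% lower. Over the whole course from day 2 to day 20, 5 of 8 members were at least 2-fold higher and 0 lower, against 15.5% and 17.0% of 11888 measured genes. With cyclic loess 6 were higher, Nampt being at 1.05, and with spike-in scaling 7, Nampt being at 1.28 and Vegfa at 1.14.

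**Figure D3:**
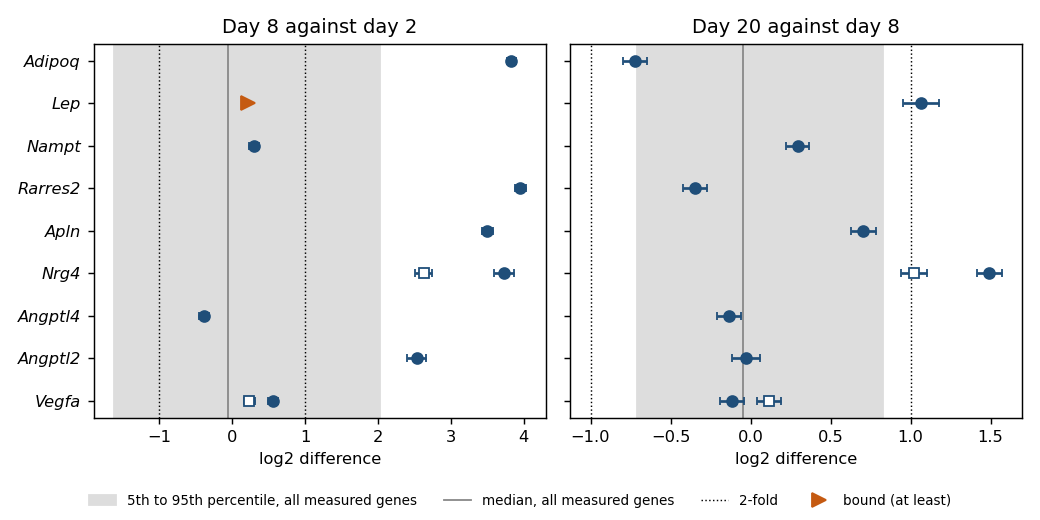
Log2 difference of each adipokine gene between arrays, day 8 minus day 2 (left) and day 20 minus day 8 (right); filled circles are the probe used, open squares a second probe, bars 1 technical SD, the triangle the lower bound for Lep, and grey bands span the 5th to 95th percentile of all measured genes. Adipoq, Rarres2, Apln, Nrg4 and Angptl2 lie beyond the band on the left, and on the right Nrg4 and Lep lie above it and Adipoq at its lower edge.

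The size of the later differences depended on how the arrays were scaled to each other. Scaling on 8 spike-in control probes instead of the 75th percentile moved the median of all genes from day 8 to day 20 to 0.62, from -0.05, and every member with it. Against that shift, the sign of the Adipoq difference was negative in all 6 scalings, from -0.72 to -0.06, the last below its technical SD of 0.075. Lep (1.07 to 1.73), Nrg4 (1.49 to 2.16), Apln (0.70 to 1.37) and Nampt (0.29 to 0.96) were positive in all 6. Rarres2, Angptl4, Angptl2 and Vegfa had both signs. With spike-in scaling 3 members were at least 2-fold higher on day 20 than on day 8.

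**Figure D4:**
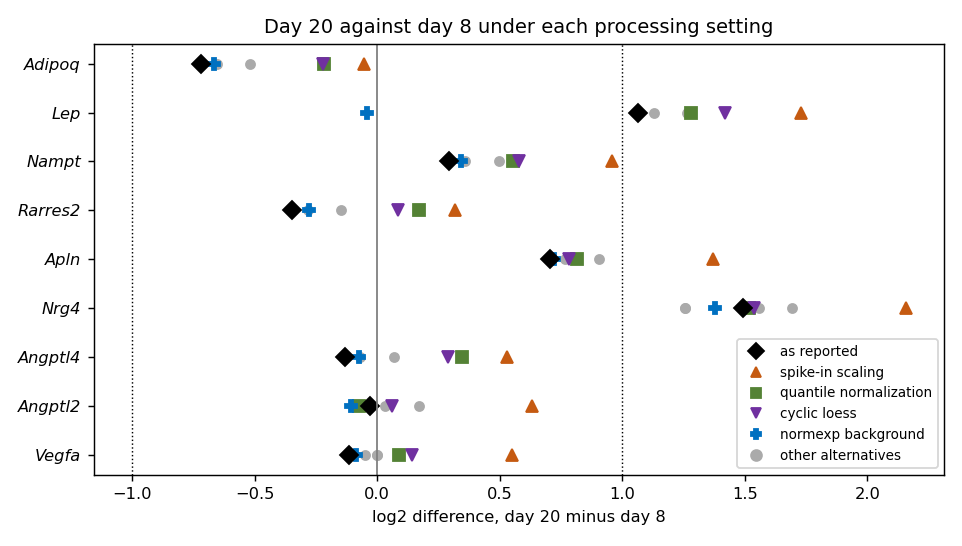
Log2 difference of each adipokine gene from day 8 to day 20 (horizontal axis) under the reported setting and 11 alternatives; black diamonds are the reported values and dotted lines mark 2-fold. Adipoq stays left of 0 and Nampt, Apln and Nrg4 right of it under every setting, whereas Lep is at -0.04 with normexp background correction and at 1.07 or more otherwise.

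Differences between 2 members on the same arrays do not change when an array is rescaled by 1 constant. Over days 8 to 20, Nrg4 gained 2.21 on Adipoq (4.63-fold), with a lowest value of 1.73 among the settings. Lep gained 1.79 (3.45-fold; lowest 0.63, with normexp), Apln 1.42 (2.68-fold; lowest 1.00) and Nampt 1.01 (2.02-fold; lowest 0.77). As read by these probes, the ratio of leptin to adiponectin transcript was thus higher on day 20 than on day 8. So were those of neuregulin 4, apelin and Nampt to adiponectin. An array difference that varies with signal level is not removed this way, and Lep was dim and Adipoq bright. The Adipoq difference itself was -0.22 with quantile normalization and with cyclic loess. With spike-in scaling it was -0.06, below its technical SD of 0.075. With normexp, Lep was at -0.04 and Adipoq at -0.67, so the gain of Lep then rested on Adipoq alone.

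The promoters of the members past 2-fold, where given, are shown because these genes were all higher on the later arrays. RefSeq windows of GRCm38.p6 were at hand for 7 of the 9 genes, in 8 windows, and each sequence gives the 250 bases before the annotated start on the gene's own strand. Capitals mark matches on either strand to 6 short motifs: ACGTG (core of the hypoxia response element), AGGTCA (recognition element of nuclear receptors), CCAAT (the CCAAT box), GGGCGG (GC box), CANNTG (E-box) and TATAAA. The windows are chr16:23146286-23146535 on the plus strand for Adipoq, chrX:48034854-48035103 on the minus strand for Apln, chr9:55283626-55283875 on the minus strand for Nrg4, chr2:33215711-33215960 on the plus strand for Angptl2 and chr6:29059971-29060220 on the plus strand for Lep.
Adipoq: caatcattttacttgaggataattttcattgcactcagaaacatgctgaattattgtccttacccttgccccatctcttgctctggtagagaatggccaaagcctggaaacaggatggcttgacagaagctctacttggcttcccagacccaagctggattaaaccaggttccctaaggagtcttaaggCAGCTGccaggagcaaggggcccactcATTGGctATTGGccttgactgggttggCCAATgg
Apln: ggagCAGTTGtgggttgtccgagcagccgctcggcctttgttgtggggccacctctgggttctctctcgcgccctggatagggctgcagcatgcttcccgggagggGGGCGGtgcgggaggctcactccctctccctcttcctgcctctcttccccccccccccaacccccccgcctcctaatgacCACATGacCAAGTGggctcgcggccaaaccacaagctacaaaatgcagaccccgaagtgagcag
Nrg4: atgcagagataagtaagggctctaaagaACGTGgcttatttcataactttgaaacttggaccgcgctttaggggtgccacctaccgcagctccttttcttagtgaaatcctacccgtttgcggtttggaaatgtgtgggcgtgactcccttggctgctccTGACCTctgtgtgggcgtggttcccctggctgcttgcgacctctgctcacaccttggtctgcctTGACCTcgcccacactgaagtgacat
Angptl2: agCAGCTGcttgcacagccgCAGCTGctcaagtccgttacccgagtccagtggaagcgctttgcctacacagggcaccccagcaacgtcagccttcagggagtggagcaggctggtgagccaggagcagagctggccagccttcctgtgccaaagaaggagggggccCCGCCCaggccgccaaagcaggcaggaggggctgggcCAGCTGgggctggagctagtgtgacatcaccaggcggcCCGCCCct
Lep: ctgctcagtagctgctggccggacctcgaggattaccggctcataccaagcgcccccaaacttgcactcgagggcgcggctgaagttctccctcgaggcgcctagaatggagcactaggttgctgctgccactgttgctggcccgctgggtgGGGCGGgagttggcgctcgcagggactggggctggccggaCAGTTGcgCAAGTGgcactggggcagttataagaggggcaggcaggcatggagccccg

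None of the 6 motifs was in all 5 of these windows. Adipoq held 3 CCAAT matches, at 34, 27 and 7 bases before the start, and 1 E-box, and 33.9% of 32851 mouse windows of this length held CCAAT. Nrg4 held the nuclear receptor element AGGTCA in 2 places, at 90 and 26 bases before the start, and 1 ACGTG, motifs found in 14.02% and 16.57% of all windows. Apln and Angptl2 each held 3 E-boxes, with 1 and 2 GC boxes, and Lep held 2 E-boxes and 1 GC box. E-boxes and GC boxes occurred in 66.2% and 32.7% of all windows. Over the 8 windows of members, ACGTG was in 3, AGGTCA in 2, CCAAT in 3, and the GC box and the E-box in 6 each. TATAAA, in 12.4% of all windows, was in 0 of the 8. GC content ran from 48.8% in Adipoq to 75.6% in Nampt. A match is a description of letters and not a site.

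The genes whose 3 values were most like a member's, after centring each gene on its own mean, were taken from 11405 other named genes detected on all arrays, by Euclidean distance over 3 arrays. Nearest to Adipoq were Wdr86 (distance 0.068), Tmprss6 (0.076) and Sult2b1 (0.081). Nearest to Rarres2 were Slc13a4 (0.018), C1qtnf12 (0.035), itself a secreted relative of adiponectin, and Carns1 (0.040). Apln had Foxf2 (0.032), Tap2 (0.052) and Cyp2f2 (0.101) as its nearest, and Angptl2 had Acox3 (0.021), Msra (0.045) and Anxa6 (0.054). For Nrg4 these were Sema3b (0.168), Pde3b (0.278), a phosphodiesterase of insulin signalling in fat, and Pck1 (0.329), the enzyme of glyceroneogenesis. Within a distance of 0.25 there was 1 gene for Nrg4, 9 for Adipoq, 15 for Rarres2, 23 for Apln and 73 for Angptl2, whereas Nampt, Vegfa and Angptl4, with their small differences, had 949, 1113 and 1716. The nearest of these last were LTO1, Wdsub1 and Engase for Nampt, Mzt2, Vps51 and Cep63 for Vegfa, and Pfdn2, Sh2d2a and Cdk2ap2 for Angptl4.

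Receptors for these ligands were detected about as often as all genes, of which 11810 of 20142 were detected on every day. Of 18 receptor genes, 11 were well above background on every day, and 7 were on none: the chemerin receptors Cmklr1, Ccrl2 and Gpr1, the apelin receptor Aplnr, the neuregulin receptors Erbb3 and Erbb4, and Lilrb4a. Adipor1, a receptor of adiponectin, was 1.02 higher on day 8 than on day 2 and Adipor2 differed by -0.53, with Adipor1 at -0.03 and Adipor2 at -0.46 from day 8 to day 20. Adipor1 was under 2-fold in 1 of the 6 scalings. Lepr, the leptin receptor, read 0.99, 0.70 and -0.05, and its second probe differed by 0.19 from day 8 to day 20 where the first gave -0.76. Among co-receptors of VEGF, Nrp1 was 1.76 higher on day 8 (1.16 with normexp), and Nrp2 was -2.22 from day 2 to day 8 and then 1.15 from day 8 to day 20. Itga5, an integrin that binds ANGPTL2, was -1.39 on day 8, and Flt1, a VEGF receptor, was 1.07 higher on day 20 than on day 8. With normexp these were -0.94 and 0.38. On day 8, 2 of 11 measured receptors were at least 2-fold higher and 2 lower (median -0.09), beside 13.8% and 12.9% of all genes. On day 20 against day 8, 2 were higher and 0 lower (median 0.21), beside 3.58% and 1.74% of all genes. With normexp 1 receptor was lower on day 8 and 1 higher at the later step. The shares of all genes given here hold for each list below.

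Genes that fold and ship adiponectin and other secreted proteins were higher in part. Of 13 measured, 4 had a day 8 signal at least 2-fold up and 0 at least 2-fold down, with a median of 0.40. Of all genes, 13.8% were up and 12.9% down. Sort1, a sorting receptor of insulin-responsive vesicles, was higher by 3.56 (technical SD 0.082; 2.19 on its second probe). Gstk1, also known as DsbA-L, which aids adiponectin assembly, was higher by 2.99 (technical SD 0.069). Plod1, a lysyl hydroxylase, was higher by 1.44, and the oxidase Ero1a by 1.16. The chaperone Erp44, which holds adiponectin back in the cell, differed by -0.68 and Hspa5 by 0.07. At the later step none of the 13 passed 2-fold in either direction, and with spike-in scaling 2 did.

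Around Angptl4, 5 of 11 measured genes of the lipoprotein lipase axis had a day 8 signal at least 2-fold up and 0 at least 2-fold down (median 0.50). The shares of all genes were 13.8% and 12.9%. Angptl8, which acts with other angiopoietin-like proteins on lipoprotein lipase, went from -3.43 to 2.55, a 63.2-fold difference (5.98, technical SD 0.123; 5.02 with normexp), and read 2.07 on day 20. Apoc3, an apolipoprotein that slows lipolysis, was higher by 1.28, or 0.78 with normexp, under which 3 of the list were past 2-fold. Lpl, the lipase itself, read 7.53, 8.03 and 7.60 and stayed within 2-fold, as Angptl4 did. Thereafter no gene of this list passed 2-fold on the probe used, and 5 did with spike-in scaling. Vldlr was 0.89 higher at this step on the probe used and 1.05 on its other.

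The relatives of Angptl2 and Vegfa were mostly higher on day 8 as well. Of 7 measured angiopoietins and angiopoietin-like genes, 4 passed 2-fold upward and 0 downward (median 1.36): Angptl8, Angpt2 by 3.28, Angpt4 by 2.38 and Angpt1 by 1.36. Angpt2 and Angpt4 were dim, and with the normexp background correction their differences were 1.79 and 0.79. Of the 4 other VEGF family ligands, 3 were higher and 0 lower (median 1.61). Vegfd, a ligand of lymphatic vessels, was higher by 3.47 (11.1-fold) and Vegfb by 2.05 (4.15-fold), whereas Vegfa itself was higher by 0.56. Vegfc was higher at both steps, by 1.17 and then 1.23.

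Of the 10 other neuregulins and EGF family ligands, 3 could be measured between days 2 and 8. Nrg1 was higher by 1.01 and then, from day 8 to day 20, by 1.35, and Egf by 1.19 with -0.64 afterwards. Hbegf was -2.07 on day 8 and 1.46 on day 20 against day 8, values that were -0.61 and 0.16 with normexp, under which none of the 3 passed 2-fold on day 8. Nrg2 and Nrg3 were not well above background on any day. The Nrg1 value for day 8 was past 2-fold in 4 of 6 scalings.

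In the NAD pathway around Nampt, 2 of 14 measured genes had a day 8 signal at least 2-fold up and 0 at least 2-fold down, with a median of 0.01, a share near the 13.8% of all genes. These were Sirt3, a mitochondrial deacetylase that uses NAD, by 1.46, and the mitochondrial NAD kinase Nadk2 by 1.26. From day 8 to day 20, Nnmt, which consumes nicotinamide, the substrate of Nampt, differed by -1.15. It was past 2-fold in 3 of the 6 scalings.

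Among 38 other secreted factors of fat cells with a probe, 22 could be measured between days 2 and 8, and 9 were at least 2-fold higher and 5 lower (median 0.57). The shares of all genes were 13.8% and 12.9%. Cfd, the complement protease adipsin, was 6.46 higher (88.1-fold), the chemokine Ccl2 4.25 and the growth factor Igf1 4.17. Lcn2, a lipid-binding acute-phase protein, was -6.42, and the Wnt antagonist Sfrp5 -3.15. Fgf21, a hormone of the fasting response, was detected on day 2 only and was not well above background on day 8, with a bound of -2.81. From day 8 to day 20, 8 of 24 were at least 2-fold higher and 1 lower (median 0.45), beside 3.58% and 1.74% of all genes. Grem1, an inhibitor of bone morphogenetic proteins, was 2.18 higher, the guidance cue Slit2 2.00 and the matrix protein Fbn1, the source of asprosin, 1.97. With normexp Ccl2 was 2.89 and Sfrp5 -2.10 on day 8, and Grem1 1.44 and Slit2 1.02 at the later step. Retn, the gene of resistin, was -1.32, past 2-fold in 3 of 6 scalings. Adipoq was also lower, at -0.72, as were other bright genes such as Aldoa at -0.51 and Pgk1 at -0.55.

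Of 25 measured regulators known to act on adipokine genes, 4 had a day 8 signal at least 2-fold up and 2 at least 2-fold down (median -0.14), beside 13.8% and 12.9% of all genes. Pparg, the master regulator of adipogenesis, was higher by 1.71, the glucocorticoid receptor Nr3c1 by 1.87 and the AP-1 factor Fosl2 by 1.22. Clock was -1.39 and Cebpb, an early factor of adipogenesis, -1.18. These counts depend on the probe read. On other probes Epas1 gave 2.10 and 1.58 (0.61 on the probe used), Rxra -1.15 (-0.86) and Fosl2 0.66. Cebpa read 3.05, 2.64 and 2.76 and stayed within 2-fold. From day 8 to day 20, Atf3, a stress-induced factor, was 1.14 higher and Hif3a was -1.30, with no other regulator past 2-fold on the probe used. With normexp they were 0.86 and -0.93, and no regulator was past 2-fold, and Hif3a was -0.64 with the scaling that moved it most. Other probes of Ppara gave 1.19 and 1.04 at this step, where the probe used gave -0.02. With spike-in scaling 7 regulators, 13 of the other secreted factors and 4 receptors passed 2-fold upward at this step.

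Adipoq and Angptl4 are known targets of PPARG, and Angptl4, Vegfa, Lep and Apln of hypoxia-inducible factors. On day 8, 13.8% of all genes were at least 2-fold higher than on day 2 and 12.9% lower. Of 24 other PPARG targets measured, 10 had a day 8 signal at least 2-fold up and 1 at least 2-fold down (median 0.78), led by the lipid droplet protein Cidea at 5.69, the lactate receptor Hcar1 at 4.25 and Pck1 at 3.99, the first pair being 4.64 and 2.24 with normexp. Agpat2, an enzyme of triglyceride synthesis, was -1.01 and past 2-fold in 2 of 6 scalings. These counts depend on the probe read: Acsl1 was -0.77 on the probe used and -1.51 on its other, and Mgst1 0.92 and 1.07. Pck1 was also 1.70 higher on day 20 than on day 8, the only one of the list past 2-fold then, where 5 were with spike-in scaling. Of 23 other targets of hypoxia-inducible factors measured, 16 had a day 8 signal at least 2-fold up and 2 at least 2-fold down (median 1.70). Ankrd37 was at 4.50, Ndrg1, a stress-response gene, at 4.43 (2.83 with normexp) and Pdk1, which holds pyruvate back from the mitochondria, at 3.68. Adm and Car9, detected from day 8 on, were at least 30.1-fold and 20.1-fold higher. Pfkfb3, an activator of glycolysis, was -2.12, and -1.12 on its other probe. Ldha was 0.36 on the probe used, and 1.39 and 1.31 on its others. In contrast with most of these genes, Vegfa and Angptl4 stayed within 2-fold on day 8, at 0.56 and -0.39. Apln, like most of them, was higher, by 3.50, and Lep had only a bound, at least 1.16-fold. Between days 8 and 20, 2 of 25 of these targets passed 2-fold upward and 0 downward, among them Adm at 1.01, and 11 did with spike-in scaling and 1 with normexp. Of all genes, 3.58% were higher and 1.74% lower at this step. The oxygen tension of the cultures was not measured here.

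**Figure D5:**
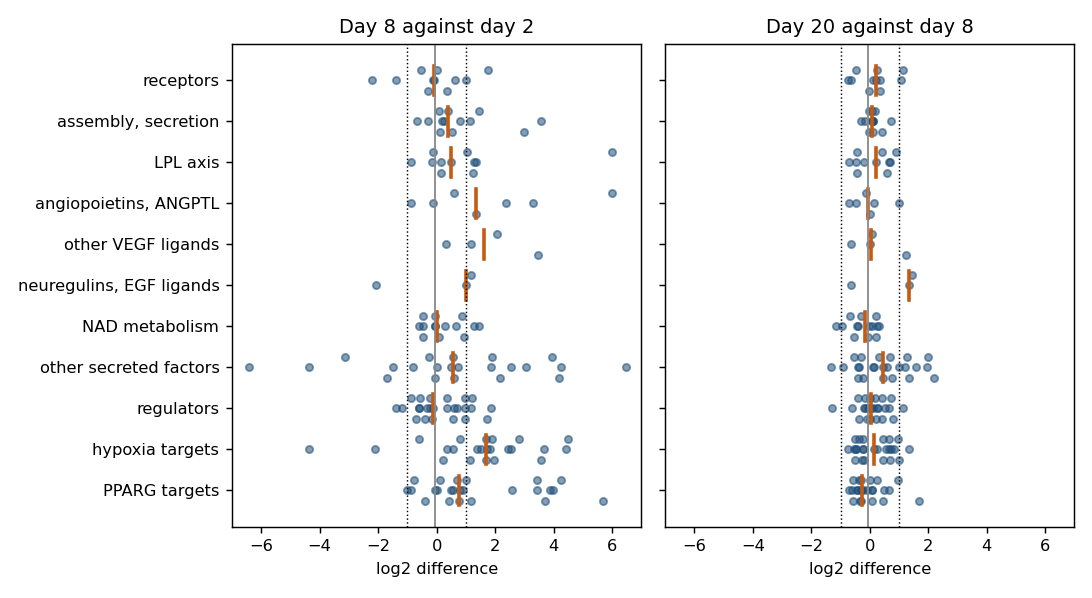
Log2 difference of every measured gene of the 11 lists around the adipokines (1 point per gene, members left out), day 8 minus day 2 (left) and day 20 minus day 8 (right); orange bars are list medians, the grey line is the median of all genes and dotted lines mark 2-fold. The hypoxia targets have a median of 1.70 on the left and 0.15 on the right, and most lists lie close to the median of all genes on the right.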

How the data were processed

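Total RNA of 3T3-L1 cells was measured on 3 one-colour Agilent arrays, 1 per day. The deposited intensity of a spot is a linear reading. The submitters' processing notes name Agilent Feature Extraction 10.7.1.1. Per the file headers, the processed intensity is background-subtracted, and the arrays are not scaled to each other. The series table holds deposited log2 values, and 100% of them match the log2 intensity plus an array constant within 0.01 (constants -9.37, -9.31 and -9.86, column medians -4.80, -4.69 and -4.89), so their scale, centring and direction are known. Controls and outlier spots were dropped, the spots of a probe averaged, and the 75th percentile subtracted. Of 39429 probes, 26581 were named through RefSeq identifiers (table of assembly GRCm38.p6), and 12848 have no name here. The files name mm9 as the design's build, so no gene coordinates are given. A difference was measured where at least 50% of a probe's spots were well above background on both arrays. Values called were past 2-fold. No test was possible. Scripts (Python 3.11.15, R 4.3.3, limma 3.58.1) were checked on simulated data. The normexp alternative used the median signal, the signal column these files hold. In the 11 lists, the genes named are up to 3 past 2-fold per direction and step and bounds of at least 4-fold; a few others were named after their values were seen, and some genes that the rule would name are not reported here. The members and lists were chosen with earlier results of these data known.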

Additional observations from a re-analysis of the deposited data

How the results depend on the processing

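Each count and each difference was recomputed under 5 other scalings, normexp background correction, the deposited series table, other filters and other rules for probes. Of 72 recomputed counts of members, 67 stayed within 1.5 times the reported count. The 67 include counts of lower genes that were 0 throughout, and those of the deposited series table, which differs only by array constants. They also include 7 against 5 from day 2 to day 20 with spike-in scaling. With normexp, 1 gene instead of 2 was at least 2-fold higher from day 8 to day 20, since the Lep difference was -0.041, the only reversal of a value past 2-fold. Lep intensities were below the added offset of 50, and the cause was not tested. Keeping only probes above the lower quartile of signal left 3 genes higher on day 8, 1 higher from day 8 to day 20 and 3 higher from day 2 to day 20, because Nrg4 and Angptl2 then had no measured difference from day 2 and Lep none at all. At 1.5-fold, 1 gene, Adipoq, was lower from day 8 to day 20. Without a filter, Lep differed from day 2 by 2.32 on day 8 and 3.38 on day 20. Of all calls from day 8 to day 20, 67.3% were higher (441 higher and 214 lower), against 99.0% with spike-in scaling, 83.9% with median scaling, 82.6% with cyclic loess and 34.5% without a filter, and normexp gave 206 higher and 100 lower. Of 54 values that the naming rule picks around the members, all kept their sign under 6 scalings, 48 stayed past 2-fold in each, and 43 did with normexp. The rule picks values past 2-fold under the reported scaling, 1 of these 6, so the kept signs are no check on them. No paired analysis was possible because each day had 1 array. Lep, Angptl2 and Nrg4 on day 2 were dim, which limits their differences.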

Other observations

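Adiponectin belongs to the C1q/TNF family of secreted proteins, and the relatives held in the list of other secreted factors are given here although they were picked out after their values were seen. C1qtnf12 read 0.97, 4.92 and 4.54 on days 2, 8 and 20, and so was 3.95 higher on day 8 and then -0.39. C1qtnf5 read -1.68, 0.50 and 1.08. C1qtnf1 was detected from day 8 on, at least 3.30-fold above day 2, and C1qtnf6 read -3.47, -3.73 and -3.64. C1qtnf3, not well above background on day 8, read -5.62, -5.72 and -5.33, C1qtnf7 was detected on day 20 only, at -4.80, and C1qtnf2 and C1qtnf9 were not well above background on any day. The matricellular protein gene Ccn5 read -2.78, 0.26 and 1.83, higher by 3.04 and then by 1.57, the same order of days as Apln and Nrg4.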
